A study of Mus musculus with 12 samples.

Results

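The 37 genes of the mouse mitochondrial genome were examined, chosen as the genes of the count table whose symbol begins with mt-, out of 55418 genes in all. They comprise 13 genes for mRNAs, 2 for rRNAs and 22 for tRNAs, which is the set that the mouse mitochondrial annotation holds. Read counts came from 12 brainstem libraries of outbred CFW mice at postnatal day 15, prepared with poly-A selection and sequenced as single reads of 100 bases on 1 lane. Saline mice comprised 3 males (SAL1 to SAL3) and 3 females (SAL4 to SAL6), and morphine mice comprised 3 females (MOR1 to MOR3) and 3 males (MOR4 to MOR6). Pups of the same litters received either saline or 15 mg/kg morphine under the skin, 2 times per day from postnatal day 1 to 14, and tissue was taken 16 h after the last injection, during spontaneous withdrawal. A protocol in the labels speaks of spinal cord whereas the tissue label and the study's methods give brainstem, and 9 of 10 brainstem marker genes were above 1 count per 1000000 (CPM) against 2 of 6 forebrain markers, a count that does not tell brainstem from spinal cord, since several of these brainstem genes are also used in spinal cord.

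The mitochondrial genome is a small circle of DNA that encodes core subunits of the respiratory chain, the RNAs of the mitochondrial ribosome and the tRNAs that serve it. Both strands are transcribed as long precursors by the polymerase Polrmt, and the tRNAs that lie between the mRNAs and rRNAs mark the places where the precursors are cut. Most mitochondrial mRNAs then receive short poly-A tails, so they are captured by poly-A selection, and pieces of the mitochondrial genome have also been copied into the nuclear chromosomes over evolution.

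Total gene counts ranged from 27850565 in MOR3 to 48097947 in SAL2. MOR6, which is labelled male, carried 379.9 CPM of the female-specific transcript Xist against 0.398 to 2.71 CPM in the other 5 male libraries. Its 4 Y-linked transcripts summed to 53.2 CPM against 232.0 to 393.8 CPM. Female libraries held 546.8 to 970.5 CPM of Xist and 0.173 to 1.37 CPM of the Y-linked transcripts. MOR6 thus lay between the sexes and did not match its label. What lies behind this was not tested, and values without MOR6 are given below. SAL3 had the highest CPM of the 12 libraries for each of the 10 abundant mitochondrial genes named below, and values without it are given too.

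Counts were concentrated on a few of the genes. At least 1000 counts in every library were found for 10 of the 37 genes, namely mt-Rnr1, mt-Rnr2, mt-Nd1, mt-Nd2, mt-Co1, mt-Nd4, mt-Nd5, mt-Nd6, mt-Cytb and the tRNA gene mt-Tp. The other 27 genes never exceeded 21 counts in a library, and together they held 513 of the 25335958 mitochondrial counts. They included 6 genes for mRNAs, namely mt-Co2 and mt-Co3 of cytochrome c oxidase, mt-Atp6 and mt-Atp8 of the ATP synthase, and mt-Nd3 and mt-Nd4l of complex I, whose counts summed to 12 over the 12 libraries with at most 2 in any of them. mt-Nd3 was among 10 genes at 0 in every library, and a count of 0 allows up to 3 counts, or 0.0624 to 0.108 CPM per library.

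The near-absence of counts on mt-Co2, mt-Co3, mt-Atp6, mt-Nd3 and mt-Nd4l accompanied nuclear copies of the same sequence. A row of annotated unprocessed pseudogenes on the minus strand of chromosome 1 (GRCm38, from 24611535 to 24616197) carried copies of 7 mitochondrial mRNA genes. Its Gm28661 matched mt-Co2 over 681 bases without a mismatch, Gm28437 matched mt-Co3 over 783 bases, Gm10925 matched mt-Atp6 over 678, Gm10222 matched mt-Nd4l over 294, and Gm28438 matched mt-Nd3 over 342. A second row on chromosome 2 was more diverged, with 16 mismatches between Gm13341 and mt-Co2 over 672 aligned bases. The first 60 bases of mt-Co2 (chrM:7013-7072, plus strand), of Gm28661 (chr1:24615506-24615565, minus strand) and of Gm13341 (chr2:22587903-22587962, minus strand) are shown to make that difference visible, 5′ to 3′ from the GENCODE transcripts, with the bases at which mt-Co2 and Gm13341 differ (C25T and G57A, counted from the first base of mt-Co2) in capitals.
mt-Co2: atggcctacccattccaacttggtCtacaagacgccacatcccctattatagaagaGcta
Gm28661: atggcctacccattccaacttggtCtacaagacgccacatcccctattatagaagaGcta
Gm13341: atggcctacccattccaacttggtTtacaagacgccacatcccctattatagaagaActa

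Windows of 100 bases, the length of a read, were counted along each gene. For mt-Co2, 582 of 585 windows were identical to an annotated nuclear transcript, and the corresponding shares were 684 of 685 for mt-Co3, 579 of 582 for mt-Atp6, 243 of 249 for mt-Nd3 and 195 of 198 for mt-Nd4l. mt-Nd4 had 777 of 1279 windows copied, mt-Co1 446 of 1446 and mt-Nd2 30 of 939, whereas mt-Nd1, mt-Nd5, mt-Nd6, mt-Cytb and both rRNA genes had none. mt-Atp8 had 1 count in all although 62 of its windows lay clear of other genes and of annotated copies. On chromosome 1 its place falls between the end of Gm10925 at 24614651 and the start of Gm28661 at 24614885, where no pseudogene is annotated. That stretch is as long as the one between the matched parts of mt-Co2 and mt-Atp6 in the mitochondrial genome. Whether its sequence is a copy was not tested. How the authors treated reads that map to several places is not given in the sources used here.

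Most nuclear copies had low counts as well. Gm28661 had 0 to 8 counts per library, Gm10925 0 to 4, Gm28437 1 to 3 and Gm28439, the copy of the first 876 bases of mt-Nd4, 0 to 4. Gm28438 stood apart with 416 to 891 counts per library and 7879 in all. Over the 12 libraries the summed CPM of the 10 nuclear copies had Pearson's r of 0.797 with mitochondrial CPM on a log2 scale. In the reference Gm28438 differs from mt-Nd3, which had 0 counts, at the third base (T3C, counted from the first base of mt-Nd3). Which base these CFW mice carry there was not examined, so reads on Gm28438 cannot be told apart from reads of mt-Nd3. The first 30 bases of mt-Nd3 (chrM:9459-9488, plus strand) and Gm28438 (chr1:24613090-24613119, minus strand) are shown with that base in capitals.
mt-Nd3: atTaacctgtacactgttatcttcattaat
Gm28438: atCaacctgtacactgttatcttcattaat
Gm28438 ranged from 13.7 to 27.3 CPM in saline libraries and from 12.3 to 24.7 CPM in morphine libraries, so the groups overlapped, and its log2 fold change with the sexes combined was -0.09 (SE 0.18; edgeR quasi-likelihood test, adjusted p = 1.00).

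**Figure D1:**
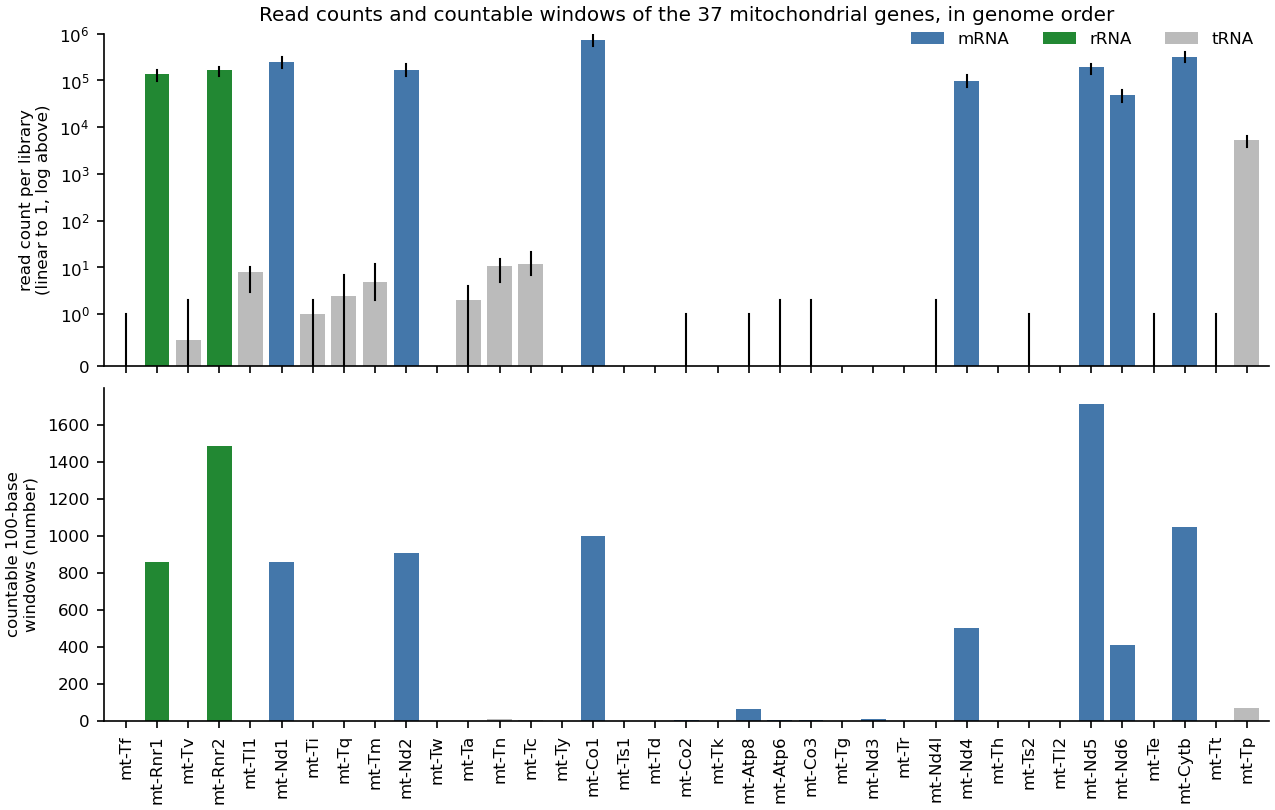
Upper panel, median read count per library of each of the 37 mitochondrial genes in genome order (bars, on an axis that is linear up to 1 and logarithmic above) with the lowest and highest of the 12 libraries (black lines). Lower panel, the number of countable 100-base windows of each gene. For mRNA and rRNA genes these lie wholly inside the gene, touch no other mitochondrial gene and match no annotated nuclear transcript. For the shorter tRNA genes they touch that gene alone, reach outside it and were not checked for copies. Windows that cross base 1 of the circle are not counted. The 27 genes with at most 21 counts have 62 such windows or fewer.

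The tRNA genes followed their surroundings. Of the 22, 19 had no 100-base window that touched them alone, and none of those 19 exceeded 12 counts in a library. Windows that cross base 1 of the circle were not counted, which bears on mt-Tf at chrM:1-68. mt-Tn and mt-Tc, the tRNAs for asparagine and cysteine, had 6 and 1 windows of their own and held 5 to 15 and 7 to 21 counts. mt-Tp, the tRNA for proline, had 67 such windows because the noncoding control region lies on one side of it, and it held 3722 to 6605 counts. Its gene is shown because it is the one tRNA gene with more than 21 counts (chrM:15356-15422, minus strand, in gene orientation, no base marked).
mt-Tp: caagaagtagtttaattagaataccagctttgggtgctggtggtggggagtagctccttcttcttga
The counting rule for reads that touch several genes, and whether counting used the strand, are not given in the sources used here. Reads of mt-Tp, and of the light-strand mRNA mt-Nd6, can therefore not be told apart from reads of the opposite strand. An untrimmed read of 100 bases is also longer than the 67 bases of mt-Tp and reaches beyond it. Counts on mt-Tp are thus not a measure of the mature tRNA.

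Levels were compared between genes as CPM, scaled with the trimmed mean of M values (TMM), per countable window. mt-Co1, the catalytic subunit of cytochrome c oxidase, was highest at 22.8 ± 3.17 CPM per countable window in saline libraries (SD, n = 6). Over the 12 libraries the mean levels per countable window were 21.7 for mt-Co1, 9.16 for mt-Cytb, which encodes cytochrome b of complex III, and 8.53 for mt-Nd1 of complex I. Then followed mt-Nd4 at 5.77, mt-Nd2 at 5.39, mt-Rnr1 at 4.73, mt-Nd6 at 3.63, mt-Rnr2 at 3.39, mt-Nd5 at 3.25 and mt-Tp at 2.29. The value of mt-Tp is on another scale, since its windows reach outside the gene whereas those of the other genes lie inside. The libraries were poly-A selected, and how well each RNA was captured was not measured. The order, above all between mRNA, rRNA and tRNA genes, is therefore one of captured reads and not of amounts in the tissue. mt-Co1 was above mt-Cytb, mt-Cytb above mt-Nd1 and mt-Nd1 above mt-Nd4 in 12 of 12 libraries. The order was less fixed further down, with mt-Nd4 above mt-Nd2 in 10 libraries, mt-Nd6 above mt-Rnr2 in 9 and mt-Rnr2 above mt-Nd5 in 7, so these neighbours did not separate beyond the spread between libraries. The place of mt-Nd4 depended on the scale. Per kilobase of the whole gene it was the lowest of the 10 at 2102 CPM, below mt-Tp in 7 libraries, whereas per countable window it was number 4.

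The 3 genes mt-Co3, mt-Nd4 and mt-Cytb end in the genome 1 base after a whole number of codons, with a T that the poly-A tail completes to a stop codon, while the other 10 mRNA genes carry a full TAA or TAG. The last 30 bases are shown for 4 of them, with the last codon, whole or in part, in capitals (mt-Co1 chrM:6843-6872, mt-Cytb chrM:15259-15288, mt-Nd4 chrM:11515-11544, mt-Co3 chrM:9361-9390, plus strand).
mt-Co1: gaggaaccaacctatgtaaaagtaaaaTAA
mt-Cytb: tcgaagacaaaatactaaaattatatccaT
mt-Nd4: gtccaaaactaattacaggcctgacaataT
mt-Co3: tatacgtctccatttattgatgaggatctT
Genes of both kinds were interleaved in the order of levels, in which mt-Cytb ranked second and mt-Nd4 number 4 per countable window, between mt-Co1, mt-Nd1 and mt-Nd2 with whole stop codons.

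**Figure D2:**
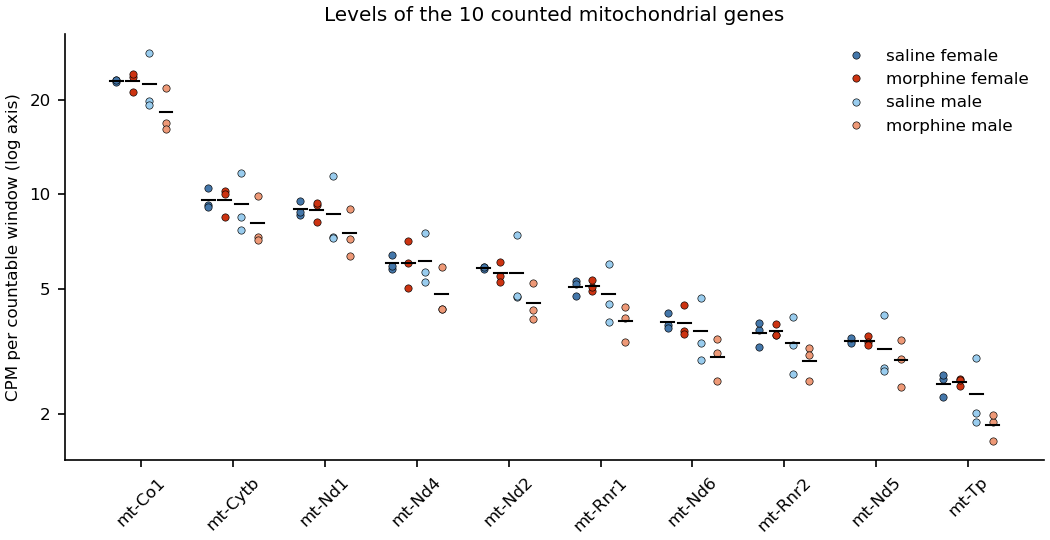
TMM-scaled CPM per countable window (log axis) of the 10 mitochondrial genes with at least 1000 counts in every library, 1 point per library and a bar at the mean of each group of 3. The morphine male mean is the lowest of the 4 group means for each gene, and mt-Co1 lies above the other 9 genes in every library.

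The mitochondrial share of all gene counts sums over the 37 genes, and nearly all of it comes from the 10 abundant ones, so it holds almost nothing of the 6 mRNA genes that were hardly counted. In saline females it was 6.42% in SAL4, 6.60% in SAL5 and 6.91% in SAL6, and in morphine females it was 6.81% in MOR1, 6.28% in MOR2 and 6.78% in MOR3. The 6 female libraries lay within 1 percentage point of each other and the treatments overlapped. In saline males the share was 5.45% in SAL1, 5.15% in SAL2 and 7.90% in SAL3, and in morphine males it was 5.27% in MOR4, 6.52% in MOR5 and 5.03% in MOR6. Saline males held both low libraries and the highest of the 12, so the male groups overlapped as well. The 95% Wilson interval of a share was at most 0.00933 percentage points on either side, which covers counting error and not the spread between mice.

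With the sexes combined, the mitochondrial share was 6.11 ± 0.774% in morphine libraries and 6.40 ± 1.00% in saline libraries (SD, n = 6 each), a difference of -0.290 percentage points (two-sided exact permutation test within sex, p = 0.585, adjusted over 4 measures p = 0.945). In females the difference was -0.0184 percentage points (exact permutation test, p = 1.00), and in males it was -0.561 (exact permutation test, p = 0.60), where 3 against 3 libraries cannot give a p below 0.10. The male difference was lower than the female one by 0.542 percentage points (-0.542, exact permutation test of the sex labels within treatment, p = 0.575). Without SAL3 the combined difference was 0.145, the male difference 0.308 and the difference between the sexes 0.326 percentage points, so each turned direction with that library. Without MOR6 they were -0.146, -0.274 and -0.255. The female difference became 0.116 without SAL6 and 0.151 without MOR2. In these tissue samples, fewer cells rich in mitochondria and less mitochondrial RNA per cell cannot be told apart.

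**Figure D3:**
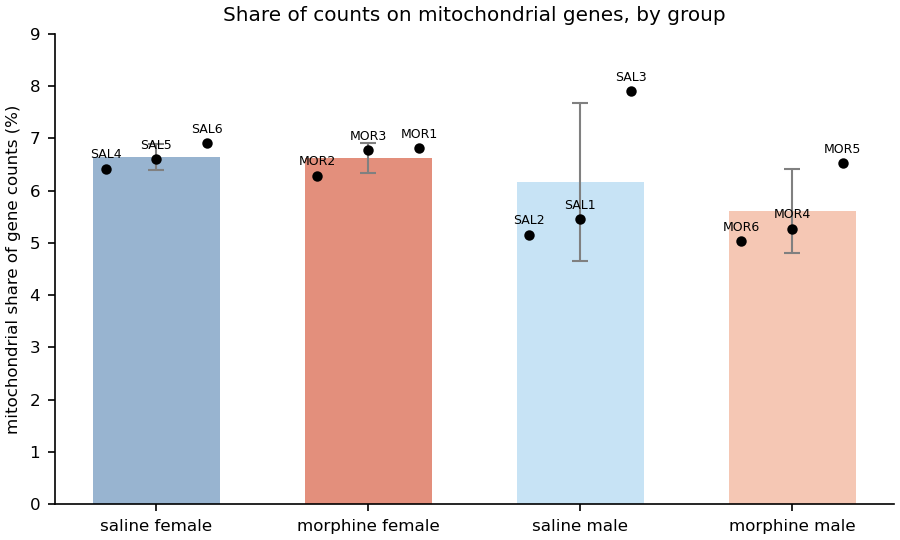
Mitochondrial share of all gene counts in percent for the 4 groups of 3 libraries, with 1 point per library, bars at the group mean and error lines of 1 SD. The female libraries lie between 6.28% and 6.91%, and the male libraries between 5.03% and 7.90% with SAL3 at the top.

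The composition of the mitochondrial counts was close between treatments. rRNAs made up 14.7 ± 1.42% of mitochondrial counts in morphine libraries and 14.4 ± 1.04% in saline libraries (SD, n = 6; exact permutation test, p = 0.795). The highest rRNA shares were 16.6% in MOR6 and 16.3% in MOR2, and the lowest were 13.2% in SAL6 and 13.4% in MOR4 and MOR5. Counts on tRNA genes, nearly all of them on mt-Tp, made up 0.245 ± 0.0240% and 0.248 ± 0.0191% (exact permutation test, p = 0.835). Counts of mt-Nd6, the one mRNA gene of the light strand, were 2.83 ± 0.228% of those of the other mRNA genes in morphine libraries and 2.84 ± 0.210% in saline libraries (exact permutation test, p = 0.945). After adjustment over the 4 measures the p was 0.945 for each.

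Gene by gene, edgeR's quasi-likelihood test was applied to all genes that passed its filter on low counts, and a gene was called at an unadjusted p below 0.05 with an absolute log2 fold change above 0.26, the thresholds of the study. The filter was passed by 12 of the 37 mitochondrial genes with the sexes combined, in females and in the interaction, and 11 in males, where mt-Tc did not pass. None of them was called in any of these comparisons, against 1.19% of all tested genes called with the sexes combined, 1.81% in females, 2.99% in males and 2.94% for the difference between the sexes. None reached an unadjusted p of 0.05 either, against 1.32%, 1.89%, 2.99% and 2.94% of all genes in the same order, and edgeR's exact test and the DESeq2 Wald test, where run, gave 0 calls as well. No gene of the whole table passed an adjusted p of 0.05 in these quasi-likelihood fits. With edgeR's exact test 3 genes passed it in females and 1 in males, none of them mitochondrial.

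With the sexes combined, the 12 tested genes had a median log2 fold change of -0.13, morphine over saline, with 12 of 12 below 0, beside a median of -0.02 over 18608 genes of which 57.4% were below 0. mt-Co1 was 19940, 19297 and 28240 CPM in SAL1, SAL2 and SAL3 and 16855, 21870 and 16184 CPM in MOR4, MOR5 and MOR6. In females mt-Co1 was 23156, 22811 and 23195 CPM in SAL4, SAL5 and SAL6 and 23771, 21246 and 24149 CPM in MOR1, MOR2 and MOR3. The groups overlapped in both sexes, and the combined log2 fold change of mt-Co1 was -0.14 (SE 0.12, edgeR adjusted p = 1.00). The other subunit genes had combined log2 fold changes of -0.18 (SE 0.12) for mt-Nd2, -0.16 (SE 0.13) for mt-Nd4, -0.13 (SE 0.12) for mt-Nd6, -0.10 (SE 0.13) for mt-Nd1, -0.09 (SE 0.12) for mt-Cytb and -0.05 (SE 0.12) for mt-Nd5. For the 2 ribosomal RNAs the log2 fold changes were -0.13 (SE 0.11) for mt-Rnr1 and -0.08 (SE 0.11) for mt-Rnr2. Among the tRNA genes they were -0.14 (SE 0.12) for mt-Tp, -0.11 (SE 0.32) for mt-Tn and -0.32 (SE 0.24) for mt-Tc.

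In females the median log2 fold change of the 12 tested genes was -0.01, equal at this rounding to the median of all 18109 genes, with 3 above and 9 below 0. It ranged from -0.28 (SE 0.40) for mt-Tc, which held at most 21 counts, to 0.02 (SE 0.09) for mt-Tp, and mt-Co1 was at -0.01 (SE 0.07). In males the 11 tested genes lay below 0 with a median of -0.28, while the median of all 18166 genes was -0.06. mt-Nd4, a core subunit of complex I, had the lowest male value, with 2633, 2840 and 3785 CPM in SAL1, SAL2 and SAL3 and 2170, 2940 and 2160 CPM in MOR4, MOR5 and MOR6. MOR5 lay above SAL1 and SAL2, so the groups overlapped, and the log2 fold change was -0.36 (SE 0.20, edgeR adjusted p = 1.00). The male values of the other complex I genes were -0.33 (SE 0.23) for mt-Nd2, -0.28 (SE 0.21) for mt-Nd6, -0.22 (SE 0.24) for mt-Nd1 and -0.14 (SE 0.22) for mt-Nd5. mt-Co1 was at -0.31 (SE 0.22), mt-Cytb at -0.21 (SE 0.23), mt-Rnr1 at -0.30 (SE 0.21), mt-Rnr2 at -0.20 (SE 0.20), mt-Tp at -0.34 (SE 0.21) and mt-Tn at -0.03 (SE 0.48).

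Without SAL3, 10 of the 11 male values lay closer to 0, whereas mt-Tn, with at most 15 counts, went to -0.24. The male median was then -0.04, with 4 genes above and 7 below 0, beside 0.03 over all genes, and the combined median was also -0.04. Without MOR6 the male median was -0.24, with 11 of 12 genes below 0, and the combined median -0.08. For the difference between the sexes the median over 12 genes was -0.22, males minus females, beside -0.03 over all 19027 genes, and the lowest was mt-Nd4 at -0.34 (SE 0.25, edgeR adjusted p = 0.985). That median was -0.04 without SAL3, beside 0.01 over all genes, and -0.16 without MOR6. The value of mt-Nd4 was -0.18 without SAL3 and -0.50 without MOR5. With total counts in place of TMM the male median over all genes moved from -0.06 to 0.06 and that of the mitochondrial genes from -0.28 to -0.16, with 10 of 11 below 0. Beyond 0.26 in size were 6 of the 11 male values with TMM, and 0 with total counts or without SAL3.

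**Figure D4:**
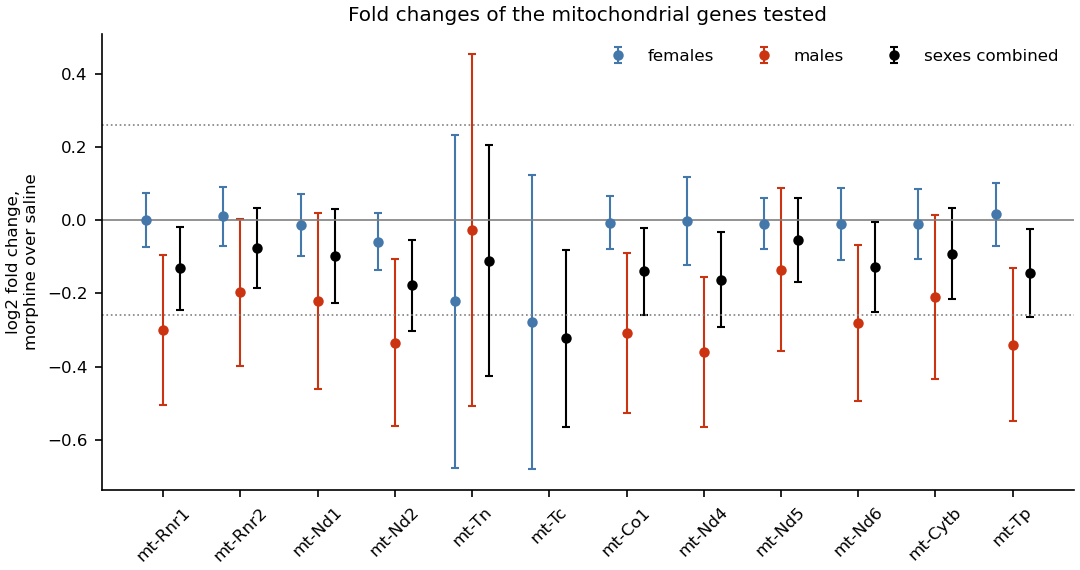
Log2 fold change of morphine over saline with 1 standard error for each tested mitochondrial gene, in females, in males and with the sexes combined; dotted lines mark an absolute log2 fold change of 0.26. The female values of the 10 abundant genes lie near 0 and the male values below 0, with error lines that reach or cross the dotted line; mt-Tc was not tested in males.

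The 10 abundant genes varied together from library to library. Over the 12 libraries the SD of log2 CPM was 0.20 to 0.26 per gene with a median of 0.23, and the SD of the log2 share of the mitochondrial counts was 0.02 to 0.14 with a median of 0.09. mt-Co1 made up 33.6% to 35.6% of the mitochondrial counts in every library, mt-Cytb 14.3% to 16.3% and mt-Nd1 11.0% to 12.3%. These shares are not corrected for length. Among the 45 pairs of the 10 genes, Pearson's r of log2 CPM over 12 libraries had a median of 0.885. It was 0.955 between the rRNAs mt-Rnr1 and mt-Rnr2, which are next to each other in the genome with the tRNA gene mt-Tv between them. The 21 pairs of mRNA genes ranged from 0.751 to 0.978, with mt-Nd2 and mt-Co1 highest, and the 14 pairs of an mRNA and an rRNA gene from 0.588 for mt-Rnr2 with mt-Nd4 to 0.895 for mt-Rnr1 with mt-Co1. These values share library depth and scaling, and they are given as a description.

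The nuclear genes that act on the mitochondrial genome were counted by list. None of 12 genes of mitochondrial DNA replication and the nucleoid, 10 of transcription, 20 tested of transcript processing and stability and 11 regulators of biogenesis was called with the sexes combined or in males by edgeR. In females 1 of these, Atad3a, an ATPase of the nucleoid, was higher at 25.0, 25.8 and 25.5 CPM in MOR1, MOR2 and MOR3 against 22.1, 22.6 and 17.7 CPM in SAL4, SAL5 and SAL6. The groups did not overlap, with a log2 fold change of 0.29 (SE 0.11, called by edgeR, adjusted p = 1.00), where 0.928% of all genes tested in females were called higher. Its level in males was 32.0, 36.2 and 16 CPM in SAL1, SAL2 and SAL3 and 25.0, 22.9 and 32.4 CPM in MOR4, MOR5 and MOR6, which overlapped. The transcription genes summed to 76.0 to 85.4 CPM in saline and 86.4 to 88.3 CPM in morphine females. In males their sums were 90.4 to 113.9 CPM in saline and 81.3 to 86.9 CPM in morphine. Polrmt was at 21.3, 24.5 and 3.61 CPM in SAL1, SAL2 and SAL3 and 8.23, 7.11 and 10.4 CPM in MOR4, MOR5 and MOR6. Mrpl12 was at 31.9, 30.6 and 7.69 CPM against 12.2, 10.1 and 17.8 CPM. SAL3 thus lay below the morphine males for both genes, which were named after their values were seen. Of the 10 genes, 8 had male log2 fold changes below 0 and 2 above. The replication genes summed to 280.2 to 293.8 CPM in saline and 264.7 to 279.8 CPM in morphine males. The other sums of these lists overlapped within each sex, and the share of all genes without overlap was not counted.

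The nuclear genes for subunits of the same respiratory complexes are given beside the mitochondrial ones as counts and medians. In females 76 of 82 tested nuclear oxidative phosphorylation genes were above 0 with a median log2 fold change of 0.16, and 5 were called higher where 0.928% of all genes were. These were the complex I subunit Ndufs7, the complex III subunits Uqcr10 and Uqcr11, Atp5g1 of the ATP synthase and Cox6c of cytochrome c oxidase, with log2 fold changes of 0.35 to 0.66. When a library was left out, the number called higher in females ranged from 0, without SAL6 or MOR1, to 30 without SAL4. In males 80 of 83 were below 0 with a median of -0.31, and 7 were called lower where 1.07% of all genes were, the first 6 by p being Ndufc2, Ndufc1, Ndufb6, Sdhd, Ndufb4 and Atp5f1. The summed CPM of the listed genes was 10473 in SAL3 and reached 13767 in saline males, against 9969 to 11160 in morphine males. SAL1 and SAL2 stood apart from SAL3 and from the other libraries in some of these genes. Uqcr11 was at 89.3, 101.5 and 9.47 CPM in SAL1, SAL2 and SAL3 against 20.5, 17.6 and 34.3 CPM in MOR4, MOR5 and MOR6. In females Uqcr11 lay between 10.0 CPM in SAL6 and 31.3 CPM in MOR1. Without SAL3, which leaves SAL1 and SAL2 as the saline males, 50 of 84 were called lower where 18.8% of all genes were. The number was 4 without SAL1 and 7 without SAL2, with a lowest number of 2 without MOR5. The mitochondrial genes had medians of -0.01 in females and -0.28 in males. For the difference between the sexes 12 of 84 nuclear genes were called lower, where 1.33% of all genes were, and 0 of 12 mitochondrial genes, and the number of nuclear genes ranged from 4 to 52 when a library was left out, the highest being without SAL3. With the sexes combined 1 of 82, the cytochrome c oxidase gene Cox7b2, was called lower at -0.70 (SE 0.31), where 0.58% of all genes were. Whether the nuclear and mitochondrial genes differed from each other was not tested. The cytosolic ribosomal protein genes had the same directions, so these were not particular to the respiratory chain. In females 78 of 80 were above 0, with a median of 0.20 and 3 called higher. In males 79 of 80 were below 0, with a median of -0.37 and 8 called lower. For the difference between the sexes 80 of 80 were below 0, with a median of -0.55 and 18 called lower. The shares of all genes called are those given above. The summed levels of 3 of 11 cell type and tissue marker lists did not overlap between the male groups, and all 11 overlapped between the female groups. The share of all genes that did not overlap between the same groups was not counted, so these numbers have no background value beside them. The summed CPM of 6 cerebellar granule cell markers was 42.0 to 42.6 in saline males and 52.3 to 95.5 in morphine males. Lower in morphine males were 7 astrocyte markers at 6128 to 6687 CPM against 7154 to 7448 CPM, and 8 neuronal markers at 7072 to 7275 CPM against 7690 to 8677 CPM. None of these astrocyte and neuronal markers was called in males. Lists whose sums overlapped had called genes as well. Of 8 choroid plexus markers 8 were above 0 in males and 5 called higher, where 1.92% of all genes were. Of 8 oligodendrocyte markers 8 were below 0 in males and 2 called lower, where 1.07% of all genes were. The 9 nuclear-retained long noncoding RNAs summed to 5076 to 6654 CPM in saline males and 7936 to 8955 CPM in morphine males. The noncoding RNA list includes Xist, which MOR6 carried. The part of these in the mitochondrial values was not tested.

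Across libraries, mitochondrial CPM of nuclear counts were set against the nuclear levels on a log2 scale. Over 12 libraries Pearson's r was -0.392 with the summed nuclear oxidative phosphorylation genes (permutation test, p = 0.208, adjusted over 4 relations p = 0.291) and Spearman's rho -0.336 (p = 0.290, adjusted p = 0.579). With the cytosolic ribosomal proteins r was -0.530 (permutation test, p = 0.0791, adjusted p = 0.291) and rho -0.441 (p = 0.156, adjusted p = 0.579), and r was -0.270 without SAL1 and SAL2. Without MOR3 and SAL1 the first r was -0.548. Within the 6 saline libraries r was -0.841 and -0.930, and within the 6 morphine libraries 0.203 and 0.287, a difference that was not tested. For nuclear-retained long noncoding RNAs r was 0.125 and rho 0.112 (permutation tests, p = 0.697 and 0.730, adjusted p = 0.697 and 0.730), and r was 0.0169 without SAL1 and SAL4. For total counts r was -0.390 and rho -0.203 (permutation tests, p = 0.218 and 0.529, adjusted p = 0.291 and 0.705), and r was 0.0853 without SAL2 and MOR3. The labels name no sequencing batch other than the 1 lane, so no within-batch value was computed.

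**Figure D5:**
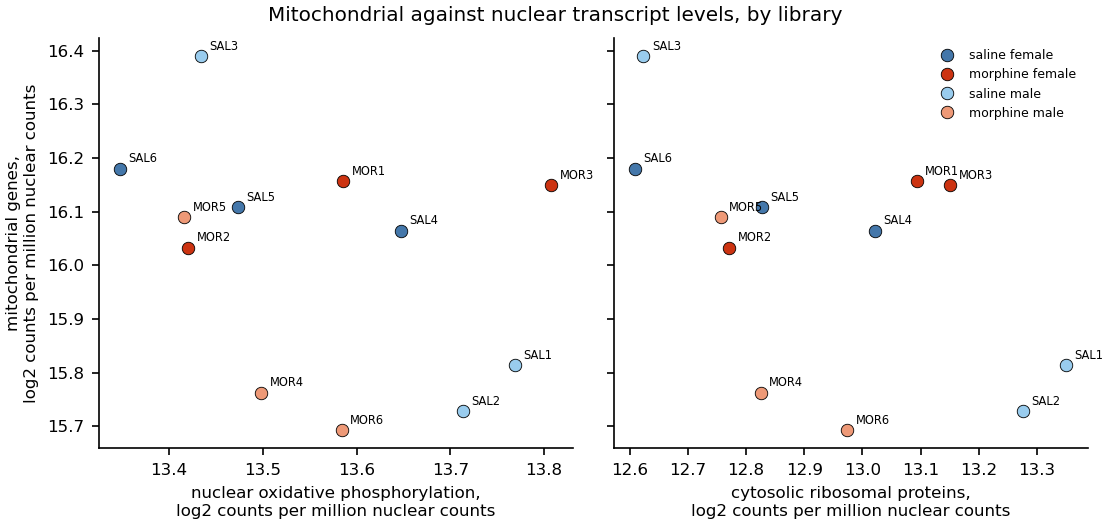
Mitochondrial counts against summed counts of nuclear oxidative phosphorylation genes (left) and of cytosolic ribosomal protein genes (right), both axes in log2 CPM of nuclear counts, 1 point per library coloured by group. SAL1 and SAL2 lie low and to the right, SAL3 and SAL6 high and to the left, and the morphine libraries show no such order.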

How the data were processed

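RNA-seq was performed on 12 brainstem libraries, 3 per treatment and sex. The deposited values were raw read counts per gene: per the labels and the study's methods, the authors used Trimmomatic for trimming, STAR for alignment against mm10 and featureCounts for counting reads on the exons of an Ensembl annotation, without normalization. Versions, strand and multi-mapping settings are not given in the sources used here, and the dam, a covariate of the study, is not in the labels and was left out. Whether the animals of a group came from separate litters is not given, so p-values measure the spread between these samples. The mitochondrial genes and the gene lists were chosen with earlier results of these data known.

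Here edgeR 4.0.16 (R 4.3.3) fitted the quasi-likelihood model with TMM scaling, filterByExpr and default dispersion estimates, with sex as a covariate for the sexes combined, within each sex, and with an interaction over 12 libraries. p-values were adjusted over all tested genes by Benjamini-Hochberg. Shares of counts were compared with exact permutation tests (scipy 1.17.1) within sex, 400 arrangements combined and 20 within a sex, and relations with 100000 permutations. For the difference between the sexes in a share, the sex labels were permuted within treatment, with 400 arrangements. Gene positions, sequences and 100-base windows came from GENCODE M21 (GRCm38); copies were searched among annotated transcripts, since no genome sequence was used. All 13 mRNA and 2 rRNA genes were named, tRNA genes that passed the combined filter, and list genes called in a fit (up to 6 per list and fit, smallest p first). Fits were tested on simulated data. Alternatives covered the test (DESeq2 1.42.0, edgeR's exact test), scaling, filter, covariates and leaving out each library, which for the nuclear oxidative phosphorylation genes was chosen after seeing the data. Depth ranged from 27850565 to 48097947 counts, and Wilson intervals at 95% cover counting error only.

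Same-numbered saline and morphine libraries did not deviate together, with correlations of -0.36 to 0.18 over the 6 numbers.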

Additional observations from a re-analysis of the deposited data

Results flagged for a closer look

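The summed level of the 12 genes of mitochondrial DNA replication and the nucleoid was 264.7 CPM in MOR4, below the other 5 morphine libraries, the nearest of which had 278.7 CPM. The gap was 0.630 of the range of the 6 libraries, beyond the critical value of Dixon's test at the 95% level. Chance alone goes beyond that value in about 1 of 20 groups, and neither the mitochondrial share nor a CPM value of the 10 abundant mitochondrial genes went beyond it in either treatment. The test was run on many values, namely 4 shares, these CPM values, list sums and the mitochondrial level, each in both treatments. The MOR4 value was the only one beyond the limit, which is not more than chance alone can give. MOR4 had a mitochondrial share of 5.27%, the second lowest of the 6 morphine libraries.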

How the results depend on the processing

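The count of mitochondrial genes called was 0 under every alternative tried but one: without a filter on low counts, with the sexes combined, it was 1 of 27 tested, the tRNA gene mt-Tq (log2 fold change -1.54, SE 0.71, edgeR adjusted p = 1.00), which held at most 7 counts in a library and is named after its value was seen. The number of all genes called without the filter was 754 in place of 221. Left-out libraries gave differences in mitochondrial share from -0.544 to 0.145 percentage points combined, -0.131 to 0.151 in females, -1.07 to 0.308 in males and -1.05 to 0.326 between the sexes. The positive ends belong to the fits without SAL3, and in females without MOR2. Log2 fold changes that turned direction when a library was left out ranged from -0.15 to 0.012 for mt-Nd1, -0.10 to 0.036 for mt-Nd5 and -0.25 to 0.029 for mt-Tn with the sexes combined. In males these ranged from -0.34 to 0.032 for mt-Cytb, -0.34 to 0.072 for mt-Nd1, -0.25 to 0.12 for mt-Nd5, -0.35 to 0.011 for mt-Rnr2 and -0.24 to 0.34 for mt-Tn. In females, of the 3 genes with a value above, they ranged from -0.043 to 0.049 for mt-Co1 and -0.038 to 0.067 for mt-Tp. With total counts mt-Tn was at 0.10 in males, and in the fit of all 12 libraries mt-Co1 was at 0.0012 in females. Over all tested genes, 3 of 12 combined values, 10 of 12 female, 5 of 11 male and 5 of 12 between the sexes turned direction without at least 1 library. Beyond left-out libraries and settings that cannot move the value, 220 of 222 fold changes of the named mitochondrial genes and 12 of 12 share differences kept their direction and none passed its threshold, although their sizes moved. With the replicate number as a replicate block beside sex, 0 mitochondrial genes and 204 of all genes were called, against 221 without it; the numbers mark no shared animal or litter in the labels. Leaving out SAL3, which leaves SAL1 and SAL2 as the saline males, raised the genes called in males from 543 to 5341, of which 0 were mitochondrial. Total counts moved the share of calls that were higher in males from 64.3% to 91.3%. Causes were not tested. Counts of at most 21 limit what can be said of the 27 other genes.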

Other observations

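The summed level of the 21 listed genes for processing and stability of mitochondrial transcripts was examined after its values were seen. It ranged from 791 CPM in a saline library to 941 CPM in SAL3, which was the highest of the 12, and from 767 to 895 CPM in morphine libraries. Over 12 libraries it had Pearson's r of 0.811 with mitochondrial CPM of nuclear counts (permutation test, p = 0.00120, adjusted over 18 lists p = 0.0216) and Spearman's rho of 0.713 (p = 0.0117, adjusted p = 0.129). Pearson's r was 0.749 without SAL2 and SAL1, 0.722 without SAL3, 0.876 within the 4 groups, 0.580 in the 6 females and 0.819 in the 6 males. It was 0.992 in the 6 saline and 0.548 in the 6 morphine libraries, a difference that was not tested. The genes of the list did not share 1 direction. Trmt10c, a subunit of the mitochondrial RNase P that cuts the tRNAs at their 5′ ends, had r = 0.960 and the RNA-binding gene Fastkd2 r = 0.886, whereas Elac2, which cuts the tRNAs at their 3′ ends, had r = -0.863 and Tbrg4 r = -0.843. These genes were named after their values were seen. None of the 20 tested genes of the list was called between morphine and saline in the combined, female or male fits, and what moves with these values was not tested.

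Among the other 17 lists the next by size were astrocyte genes with r = 0.669 (permutation test, p = 0.0195, adjusted p = 0.176) and skeletal muscle genes with r = -0.591 (p = 0.0296, adjusted p = 0.178). For the astrocyte genes r was -0.200 in the 6 females and 0.810 in the 6 males, so the direction turned between the sexes, and for the skeletal muscle genes it was -0.272 without SAL2 and SAL3.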
